A study of Mus musculus with 39 samples.

Results

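The chemokines and chemokine receptors of mouse epididymal fat were followed on 39 single-colour Agilent arrays. Members were all probes, control spots left out, whose gene name was that of a chemokine (Ccl, Cxcl, Cx3cl or Xcl with a number), of a chemokine receptor (Ccr, Cxcr, Cx3cr, Xcr or Ccrl with a number), of the chemerin receptor Cmklr1 or of the Duffy antigen Darc. The rule found 58 genes with 75 probes among 29411 gene names with 40628 probes. They were 36 ligands and 22 receptors, and each was represented by its brightest probe. No measured difference between diets entered the choice. Epididymal fat of C57BL/6J mice was taken, and the mice had been weaned at 3 to 4 weeks of age and put into groups of 30 animals. The LFC group ate a low fat diet with 10% of calories from fat and had 11 arrays, taken on days 1, 6, 10 and 14 and in weeks 0, 3, 6, 9, 12, 15 and 18. The HFC group ate a high fat diet rich in sucrose, with 60% of calories from fat, and had 10 arrays, from day 6 on. The HF5, HF20 and HF75 groups ate the same high fat diet to which 5, 20 or 75 µg of KAL-1 had been added, an aqueous ethno-botanical formulation, and had 6 arrays each, at weeks 3 to 18. Every diet had 1 array per time point. The series text speaks of replicates, and it is not given whether each array held RNA of 1 mouse or a pool of the 5 mice taken at each time. The time points of a diet therefore served as its replicates, and p-values measure the spread between time points, which holds both technical and biological parts.

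Chemokines are small secreted proteins that bind G protein-coupled receptors on leukocytes and set the direction in which these cells move. Inflammatory chemokines such as Ccl2 and Cxcl1 are made on demand by stromal cells, endothelium and macrophages after signals that pass through NF-kappaB. Homeostatic chemokines such as Cxcl12, Cxcl13, Ccl19 and Ccl21 are made steadily and place lymphocytes in tissues and lymphoid organs. Atypical receptors bind chemokines without the usual G protein signal and take them up or present them. In the fat of obese mice the family is best known for the pair of Ccl2 and its receptor Ccr2, which brings monocytes into the tissue, where they become macrophages. The epididymal depot also holds small lymphoid clusters beneath the mesothelium, where B cells gather around stromal cells that make Cxcl13.

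All values are the log2 processed signal of a probe minus the 75th percentile of its array, so a value of 0 is that percentile and a step of 1 is a doubling. A total of 48 of the 58 members were well above background, as the scanner software marks a spot brighter than its surroundings, on at least 20 of 39 arrays. Among ligands this was 31 of 36 (86.1%) and among receptors 17 of 22 (77.3%), beside 68.3% of all gene names. A total of 23 members were well above background on all 39 arrays. The 10 members below 20 arrays were Ccl26 with 19 arrays, Ccl20 with 9, Ccl1, Ccr4 and Ccr8 with 8 each, Ccr1, Ccr10 and Ccr1l1 with 4 each, Cxcl17 with 3 and Ccl22 with 2. Of the array's older names, Ccrl1 is Ackr4 in the reference, Cxcr7 is Ackr3 and Darc is Ackr1, all atypical receptors. The family lies in clusters on the genome, with 14 members on chromosome 11, where most Ccl genes lie, 14 on chromosome 9, where most Ccr genes lie, and 12 on chromosome 5, where most Cxcl genes lie.

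A pair of arrays stood apart. The LFC week 3 array had 97.1% of probes well above background and 16431 spots marked as outliers, and the HFC week 12 array had 94.5% and 10531. The other 37 arrays had 53.7 to 79.6% and 21 to 387. Against the remaining arrays, the median Spearman correlation was 0.46 for LFC week 3, 0.81 for HFC week 12 and 0.90 to 0.95 for the rest. Marked spots were left out, so LFC week 3 has no value for members such as Cxcl1, Cxcl2, Cxcl11, Ccl5, Ccl11, Cxcr4 and Ccrl2, and HFC week 12 has none for Ccr2 and Cmklr1. Scan dates fell in 2 periods, the earlier one for weeks 0 to 18 and the later one for days 1 to 14. The median of a list of adipocyte markers was 2.69 to 6.26 on all 39 arrays. Lists of neighbouring tissues varied far more, from -9.41 to 3.43 for epididymis, -6.87 to 3.25 for testis and -6.89 to 1.38 for mesothelium. The epididymis list had a median of 0.44 over the early LFC arrays and -5.05 over the early HFC arrays, and its part in the results was not tested.

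**Figure D1:**
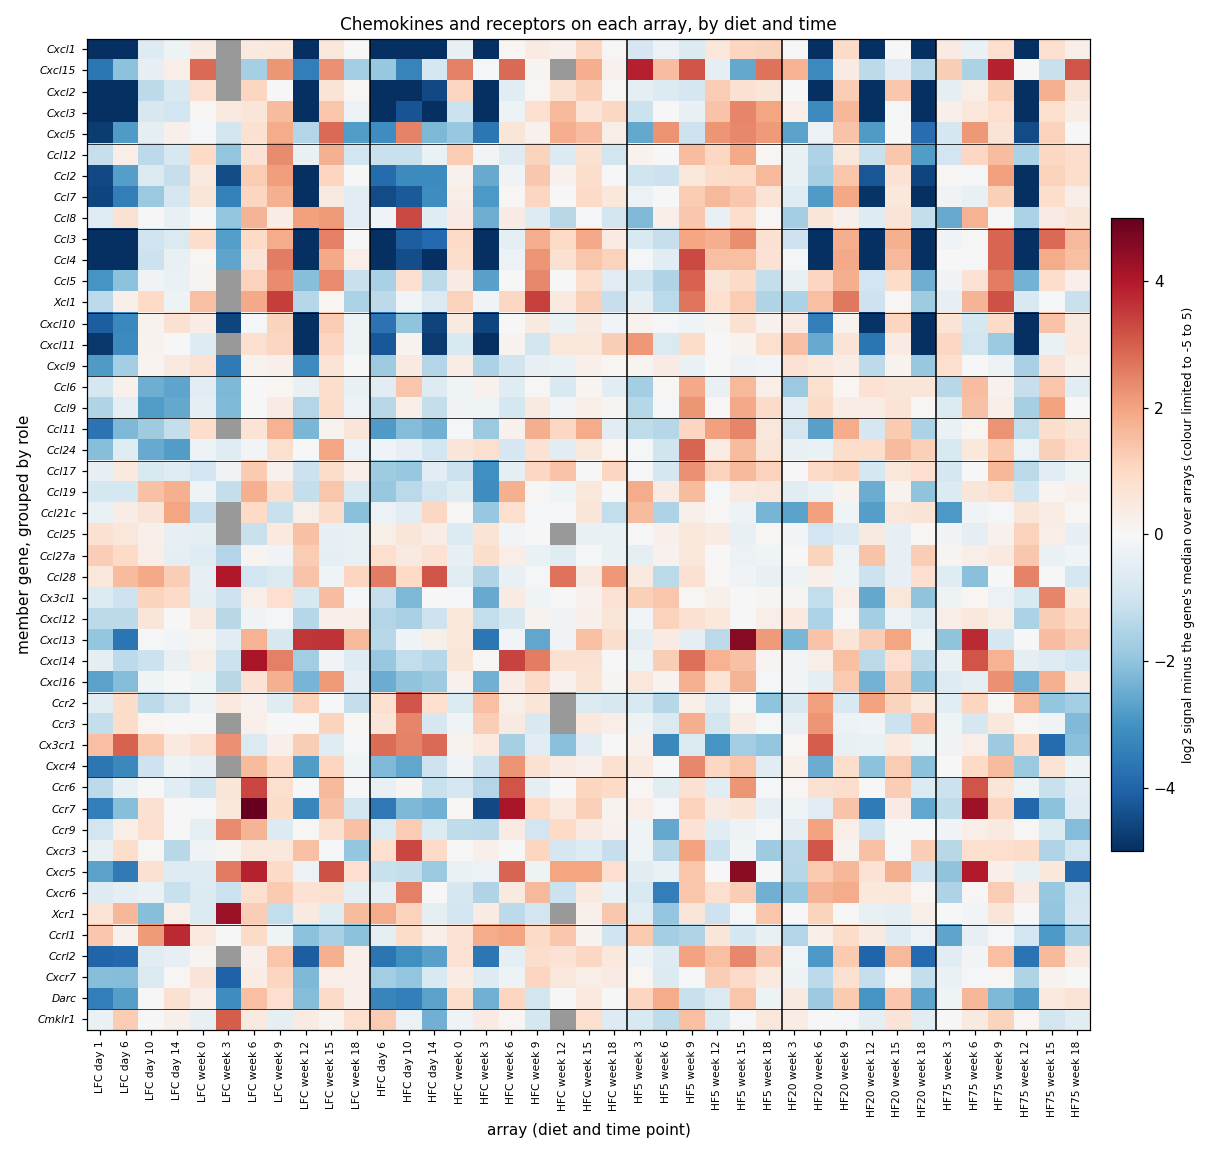
Heat map of 47 of the 48 members that were well above background on at least 20 arrays. Each row is a gene, each column an array grouped by diet and ordered by time, and the colour is the normalised log2 signal minus that gene's median over the arrays, limited to -5 and 5, with grey for no value. Cxcl1, Cxcl2, Cxcl3, Ccl3 and Ccl4 are low together on the same arrays of LFC, HFC, HF20 and HF75 and on no HF5 array.

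Several inducible ligands took 2 levels over the arrays, and for Cxcl1 both levels occurred within LFC, HFC, HF20 and HF75. Cxcl1, a neutrophil attractant that binds Cxcr2, lay between 3.84 and 5.77 on 27 arrays and between -5.24 and -0.41 on 11 arrays, with no array in the gap of 4.25 between them. In LFC, from day 1 to week 18 and without week 3, Cxcl1 was -2.91, -2.46, 4.02, 4.40, 5.07, 5.13, 5.21, -5.24, 5.22 and 4.65. In HFC, from day 6 to week 18, it was -4.51, -4.55, -0.41, 4.28, -1.42, 4.77, 5.06, 4.94, 5.70 and 4.71. Both control diets thus held high and low arrays, among the early days and again at week 12 for LFC and week 3 for HFC. In HF20, at weeks 3 to 18, Cxcl1 alternated between 4.74, -4.27, 5.64, -2.66, 4.68 and -3.98. In HF75 it was 5.06, 4.33, 5.49, -4.22, 5.52 and 4.94, and in HF5 it was 3.84, 4.37, 3.98, 5.25, 5.72 and 5.77. The low arrays were 3 of LFC, 4 of HFC, 3 of HF20 and 1 of HF75, and HF5 had none.

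The same arrays were low in other inducible members. The ones named in this paragraph and outside the fixed list were chosen after their values were seen. Cxcl2, which shares the receptor Cxcr2, was -9.44 to -3.05 on the low arrays and 0.16 to 3.25 on the others, a gap of 3.21. Cxcl3, a close relative, was -9.53 to -5.89 on 11 arrays and -3.81 to -0.29 on 28, a gap of 2.09. The atypical receptor Ccrl2, which is induced in activated myeloid cells, was -2.36 to -0.95 on 11 arrays and 1.10 to 4.14 on the others. Ccl4, an inflammatory ligand of macrophages and T cells, was -3.64 to 0.21 on 11 arrays and 2.02 to 7.95 on 28. Ccl3, a ligand of Ccr1, was -5.46 to -0.65 on 12 arrays and 0.99 to 5.04 on 27. All 6 genes therefore had an empty stretch of at least 1.63 log2 units in the middle of their range. The remaining neutrophil ligands did not follow the pattern. Cxcl5 was -9.78 to -2.56 on the 12 arrays low in immediate early genes, described next, and -7.84 to -2.20 on the others. Cxcl15 was -9.35 to -5.72 and -8.28 to -1.82, and both genes also held low values in HF5, down to -7.60 and -8.28. The inducible T cell ligand Ccl1 overlapped as well, with -8.70 to -4.04 and -8.77 to -4.13. Ccl4 was saturated on 10 arrays and Ccl2 on 7, so their highest values are lower bounds.

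Genes outside the family were low on the same arrays. A list of 11 immediate early genes, which are switched on within minutes of a stimulus, had a median under 4 on 12 arrays and of 4.59 to 5.55 on the other 27. The limit of 4 was chosen with the values known and does not lie in the widest gap. Of the 12 arrays, HFC day 14 had 3.97, HFC week 3 had 3.26 and the rest at most 2.09. The match with low Cxcl1 given next depends on this limit. Those 12 were the 11 arrays with low Cxcl1 and LFC week 3, where Cxcl1 has no value, and their list medians were -0.45 to 3.97. They were 4 of 11 LFC, 4 of 10 HFC, 0 of 6 HF5, 3 of 6 HF20 and 1 of 6 HF75 arrays. Ccl2 was -0.95 to 3.49 on them and 3.99 to 7.24 on the other arrays, without overlap. Ccl7, the next monocyte attractant, was -2.87 to 0.97 on them and 1.92 to 5.71 elsewhere, and the interferon-induced Cxcl10 was -2.63 to 1.97 on them and 3.10 to 5.41 elsewhere. Darc, the chemokine-binding Duffy antigen of venules and red cells, overlapped little, with -1.38 to 0.27 and -0.17 to 3.95. Ccl8 overlapped fully, with -0.77 to 4.97 and -0.87 to 3.78, as did Cxcl13, with -4.95 to 2.29 and -3.90 to 3.24. The cytokine Il6, known as an NF-kappaB target, was -7.06 to -1.98 on 11 of the 12 arrays and 0.89 on LFC week 3, beside 3.10 to 6.98 on the other 27. What separates these arrays was not tested. These ranges describe arrays and are not a comparison of groups.

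**Figure D2:**
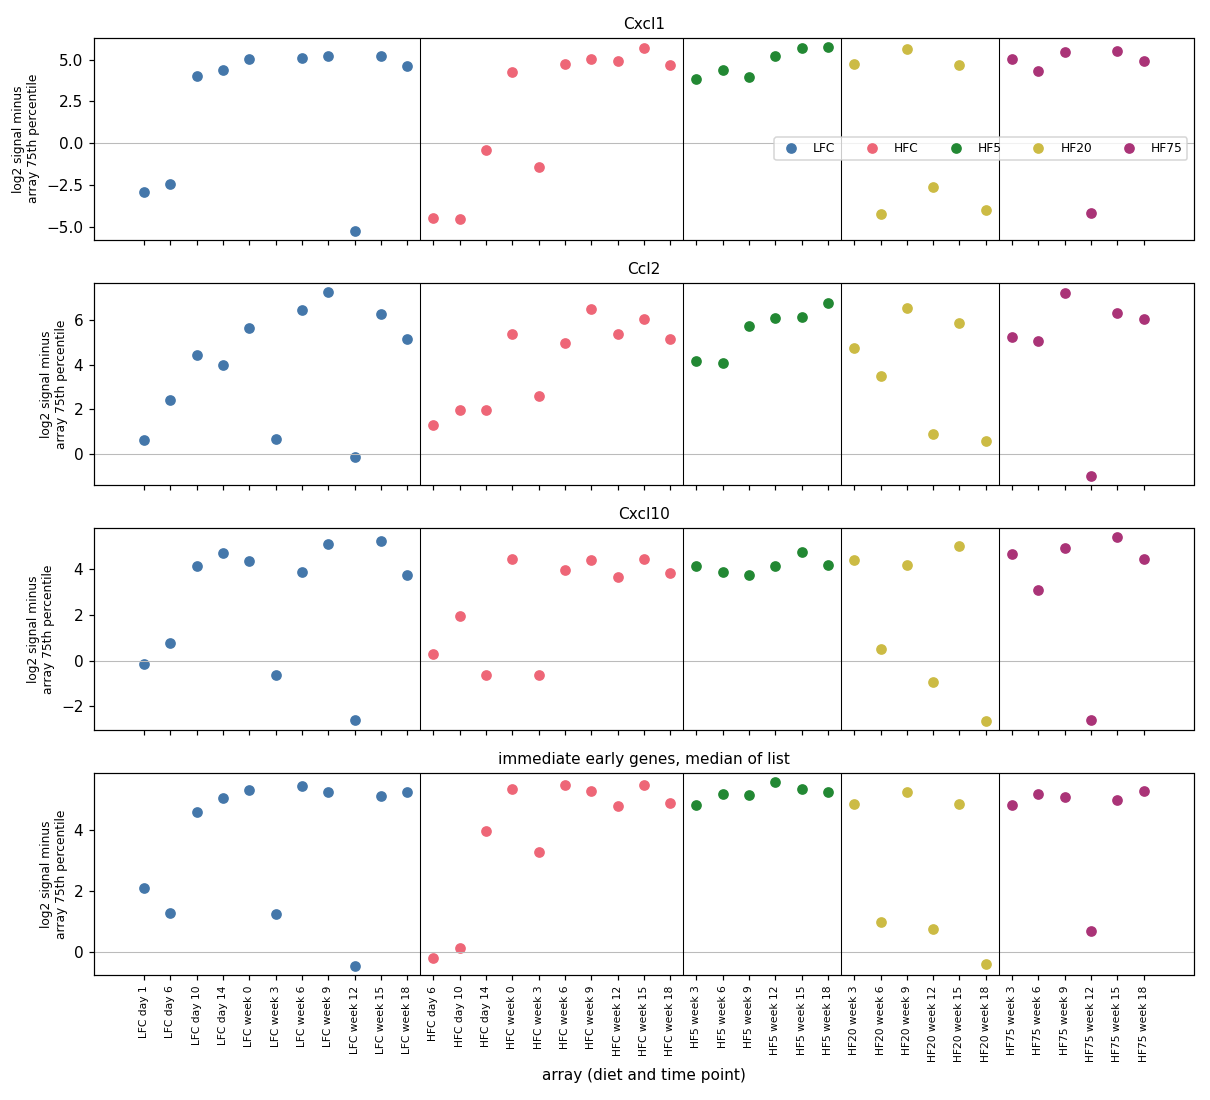
Normalised log2 signal of Cxcl1, Ccl2 and Cxcl10 and the median of 11 immediate early genes on each array. Each point is 1 array, the horizontal axis gives diet and time point, and a missing point is an array without a value. All 4 measures are low together on the same arrays, while the 6 HF5 arrays lie between 3.84 and 5.77 for Cxcl1.

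The windows before the start sites of these genes are shown because 5 of the members that were low together carry a consensus NF-kappaB match. Cxcl12, whose smaller shift over the same arrays is given further on, carries none. Windows are the 250 bases upstream of a RefSeq transcript start on GRCm38.p6, written 5′ to 3′ on the gene's strand, with matches to the NF-kappaB consensus in capitals. They lie at chr5:90890995-90891244 (plus strand) for Cxcl1, chr5:90903649-90903898 (plus) for Cxcl2, chr5:90785851-90786100 (plus) for Cxcl3, chr5:92348890-92349139 (minus) for Cxcl10, chr9:111057519-111057768 (minus) for Ccrl2 and chr6:117168285-117168534 (plus) for Cxcl12.
Cxcl1: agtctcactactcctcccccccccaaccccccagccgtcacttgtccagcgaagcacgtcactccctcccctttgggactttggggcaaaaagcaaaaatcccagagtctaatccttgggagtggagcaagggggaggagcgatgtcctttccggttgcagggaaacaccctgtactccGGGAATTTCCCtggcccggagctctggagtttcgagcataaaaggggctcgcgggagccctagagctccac
Cxcl2: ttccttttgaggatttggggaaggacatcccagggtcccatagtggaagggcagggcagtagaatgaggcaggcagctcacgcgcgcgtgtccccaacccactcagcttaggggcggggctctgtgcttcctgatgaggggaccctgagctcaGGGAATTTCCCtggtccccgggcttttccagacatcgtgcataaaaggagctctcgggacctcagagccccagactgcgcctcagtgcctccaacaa
Cxcl3: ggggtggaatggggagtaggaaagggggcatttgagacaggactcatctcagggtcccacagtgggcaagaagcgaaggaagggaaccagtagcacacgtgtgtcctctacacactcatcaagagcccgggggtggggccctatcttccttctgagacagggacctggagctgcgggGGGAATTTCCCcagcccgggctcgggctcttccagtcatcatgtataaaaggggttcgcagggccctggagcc
Cxcl10: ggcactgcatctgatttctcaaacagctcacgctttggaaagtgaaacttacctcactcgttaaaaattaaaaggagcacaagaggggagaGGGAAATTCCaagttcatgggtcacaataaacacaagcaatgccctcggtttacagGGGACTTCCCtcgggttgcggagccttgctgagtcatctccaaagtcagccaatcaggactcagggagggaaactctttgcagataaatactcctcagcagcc
Ccrl2: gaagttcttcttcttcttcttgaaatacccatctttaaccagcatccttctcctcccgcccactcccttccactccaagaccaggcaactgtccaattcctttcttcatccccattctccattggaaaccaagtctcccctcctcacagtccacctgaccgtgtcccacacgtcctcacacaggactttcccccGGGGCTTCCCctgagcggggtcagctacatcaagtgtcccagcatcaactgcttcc
Cxcl12: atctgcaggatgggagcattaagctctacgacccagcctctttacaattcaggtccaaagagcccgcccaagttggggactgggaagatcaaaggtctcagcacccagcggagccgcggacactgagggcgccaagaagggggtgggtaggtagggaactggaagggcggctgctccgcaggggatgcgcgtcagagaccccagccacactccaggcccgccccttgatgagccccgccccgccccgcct

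In Cxcl1, Cxcl2 and Cxcl3 the capitals mark the same run, GGGAATTTCCC, in which overlapping matches lie on both strands, at -71 to -61, -97 to -87 and -73 to -63 from the start. Cxcl10 has separate matches at -159 to -150 and -103 to -94, an AP-1 match (TGANTCA) at -74 to -68 and a match to the interferon element at -213 to -204. Ccrl2 has a match at -56 to -47 in the window shown, and the other 2 of its 3 windows in the table, for starts nearby, have none, while Cxcl12 has none of the 3 motifs in this window. Windows were found for 42 of the 58 members, with 48 windows in all, and both strands were searched. The NF-kappaB consensus was in 9 of 48 (18.8%), beside 3.90% of all 32851 windows in the table. The 9 were of Ccl9, Ccl20, Ccr3, Ccr6, Ccrl2, Cxcl1, Cxcl2, Cxcl3 and Cxcl10. Of these, Ccl9, Ccl20, Ccr3 and Ccr6 carry a match but overlapped between the arrays low in immediate early genes and the others. Ccl9 was 0.24 to 3.43 and -0.33 to 4.68, and Ccl20 was -8.09 to -3.29 and -7.63 to -4.23. Ccr3 was -5.93 to -2.29 and -6.94 to -2.93, and Ccr6 was -5.05 to -2.83 and -4.68 to -0.25. The AP-1 motif was in 10.4% beside 6.75%, and the interferon element in 6.25% beside 2.98%. A match is a description of the letters and shows neither binding nor a cause. Ccl3, which had the same pattern over arrays, has no NF-kappaB match in its window, and Ccl2, Ccl4 and Ccl7 had no window in the table.

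The constitutive and myeloid ligands had smaller SDs over the arrays, and some of them were also lower on the 12 arrays low in immediate early genes. The SD of Cxcl1 was 3.89 (n = 38 arrays). Cxcl12, the stromal ligand of Cxcr4, was 4.36 ± 0.87 (SD, n = 39 arrays), with 2.88 to 3.88 on the 12 arrays and 3.77 to 5.82 on the other 27, so the sets nearly separated. Ccl6 and Ccl9, rodent ligands of Ccr1 made by macrophages, were 3.44 ± 1.09 and 2.31 ± 1.17, and both overlapped broadly between the sets. Cxcl9, an interferon-induced ligand of Cxcr3, was 2.64 ± 1.12, and unlike Cxcl10 it overlapped, with -0.49 to 3.57 on the 12 arrays and 2.06 to 3.89 on the others. Cx3cl1, the membrane-bound ligand of Cx3cr1, was 1.20 ± 1.08, with -1.25 to 1.30 on the 12 arrays and 0.82 to 3.74 on the others. Among receptors, Ccr2 was -1.32 ± 1.18 (n = 38), and the chemerin receptor Cmklr1 was -4.03 ± 0.91 (n = 38). Levels of different genes come from different probes and cannot be set against each other. In bulk fat, fewer cells of a type and less RNA per cell cannot be told apart in any of these values.

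Some members stood high together on a few arrays. At week 6 the lymph node homing receptor Ccr7 was 3.48 in LFC, 2.09 in HFC and 2.26 in HF75, and at most -0.54 on every other array. Cxcr5, the B cell receptor of Cxcl13, was 0.42, -0.51 and 0.53 on these 3 arrays, and Ccr6, the receptor of Ccl20, was -0.25, -0.44 and -0.42. A B cell marker list had medians of 0.70, -0.15 and 0.56 there, so markers of lymphoid tissue moved with these receptors, and the part of that tissue in the dissection was not tested. On the HFC day 10 array Ccl8 was 4.97 and Ccl6 was 5.01, and the receptors Ccr2 and Cxcr3 were 1.77 and 1.66, each the highest of that receptor on any array. Ccr7, Ccr6 and Cxcr3 were chosen after their values were seen.

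The first comparison asked whether the high fat diet changed the family. Over the 10 time points from day 6 to week 18, 0 of 48 members tested passed an adjusted p of 0.05 in limma, with time point as a block, beside 0% of the 29169 probes tested. The lowest adjusted p of a member was 0.998. At an unadjusted p under 0.05 there were 2 members (4.17%), beside 3.05% of all probes, so the members were close to the background. The filter on low values can be passed through 1 diet alone, and counts are given as descriptions. A total of 19 members were higher and 29 lower in HFC, with a median difference of -0.11, beside 0.03 over all probes.

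Ccl19, a ligand of Ccr7 made by stromal cells of lymphoid tissue, was lower in HFC by 0.89 ± 0.38 (SE, unadjusted limma p = 0.0371). The differences from day 6 to week 18 were -1.02, -2.83, -2.73, -0.40, -1.92, 0.00, -0.82, 0.96, -0.84 and 0.75, and its second probe gave a difference of -0.90. The values were thus lower in HFC at all 4 early time points and mixed later. Ccl19 also went with the low arrays, with -0.70 to 2.09 on the 12 arrays low in immediate early genes and 1.66 to 4.27 on the other 27. At days 10 and 14, with differences of -2.83 and -2.73, HFC was among those 12 arrays and LFC was not. At week 12, with 0.96, LFC was among them and HFC was not. The part of this pattern in the difference was not tested. The gut homing receptor Ccr9 differed by -0.79 ± 0.36 (p = 0.0486), and Cmklr1 by -0.77 ± 0.37 (p = 0.0619). Ccr2 differed by 0.85 ± 0.47 (p = 0.0944), its second probe went the other way with -0.55 ± 0.84, and its ligand Ccl2 by -0.08 ± 0.64. Without LFC week 3 and HFC week 12 the count at an unadjusted p under 0.05 went from 2 to 7 of 48 members, beside 6.65% of all probes in that fit, the difference of Ccl2 became -1.03 and none passed the adjusted threshold.

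Over weeks 3 to 18, with all 30 arrays of 5 diets in 1 fit, 0 of 53 members passed between HFC and LFC, beside 0% of 31450 probes, and the lowest adjusted p was 1.00. A total of 3 members (5.66%) had an unadjusted p under 0.05, beside 2.31% of all probes. Those 3 were Ccl8 and Cxcl13, lower in HFC, and Ccrl1, higher in HFC, and they were also the 3 of 35 members with a value at every week (8.57%) whose difference had the same sign at all 6 weeks. Among all probes with a value at every week 294 of 19084 (1.54%) had 1 sign throughout. A total of 27 members were higher and 26 lower, with a median of 0.05 beside 0.06.

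Cxcl13, the attractant that gathers B cells through Cxcr5, had a lowest, median and highest value of -2.10, 0.38 and 2.30 in LFC and of -4.92, -1.47 and 0.20 in HFC. The means were 0.23 ± 1.92 and -2.0 ± 2.0 (SD, n = 6 each), and the groups overlapped. The differences at weeks 3, 6, 9, 12, 15 and 18 were -3.04, -1.88, -1.80, -3.78, -2.10 and -0.75, so HFC was lower at every week. The fitted difference was -2.22 ± 0.67 (SE, unadjusted limma p = 0.00293). Before week 3 the differences were 2.27, -0.11, 0.42 and 0.41, so the lower value was seen at weeks 3 to 18 and not at the 4 earlier time points. The B cell marker list differed by a median of -0.74 with 0 of 7 at an unadjusted p under 0.05, and a list of antibody genes of plasma cells, with 3 of 6 on the array, had a median of 0.87 in LFC and -0.93 in HFC, with 1 of 3 lower at such a p. The part of these cells in the Cxcl13 difference was not tested. Over the alternatives tried the Cxcl13 difference ran from -2.52 to -1.32.

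Ccl8, a monocyte family ligand made by resident macrophages, had a lowest, median and highest value of -0.32, 2.70 and 3.78 in LFC and of -0.77, 0.87 and 2.06 in HFC. The differences by week were -0.45, -1.32, -1.02, -3.44, -2.17 and -0.39, again 6 of 6 lower in HFC, with overlapping groups. The fitted difference was -1.46 ± 0.42 (unadjusted limma p = 0.00198), and -1.54 without LFC week 3 and HFC week 12. The atypical receptor Ccrl1, which takes up Ccl19, Ccl21 and Ccl25, ran the other way. It had a lowest, median and highest value of -5.59, -4.43 and -2.56 in LFC and of -4.51, -2.39 and -1.57 in HFC. The differences by week were 1.85, 0.99, 1.15, 3.39, 1.80 and 1.06, and the fitted difference was 1.71 ± 0.59 (unadjusted limma p = 0.00798). Ccrl1 is a dim probe, well above background on 34 of 39 arrays, and over the alternatives its difference ran from 0.10 to 2.18.

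**Figure D3:**
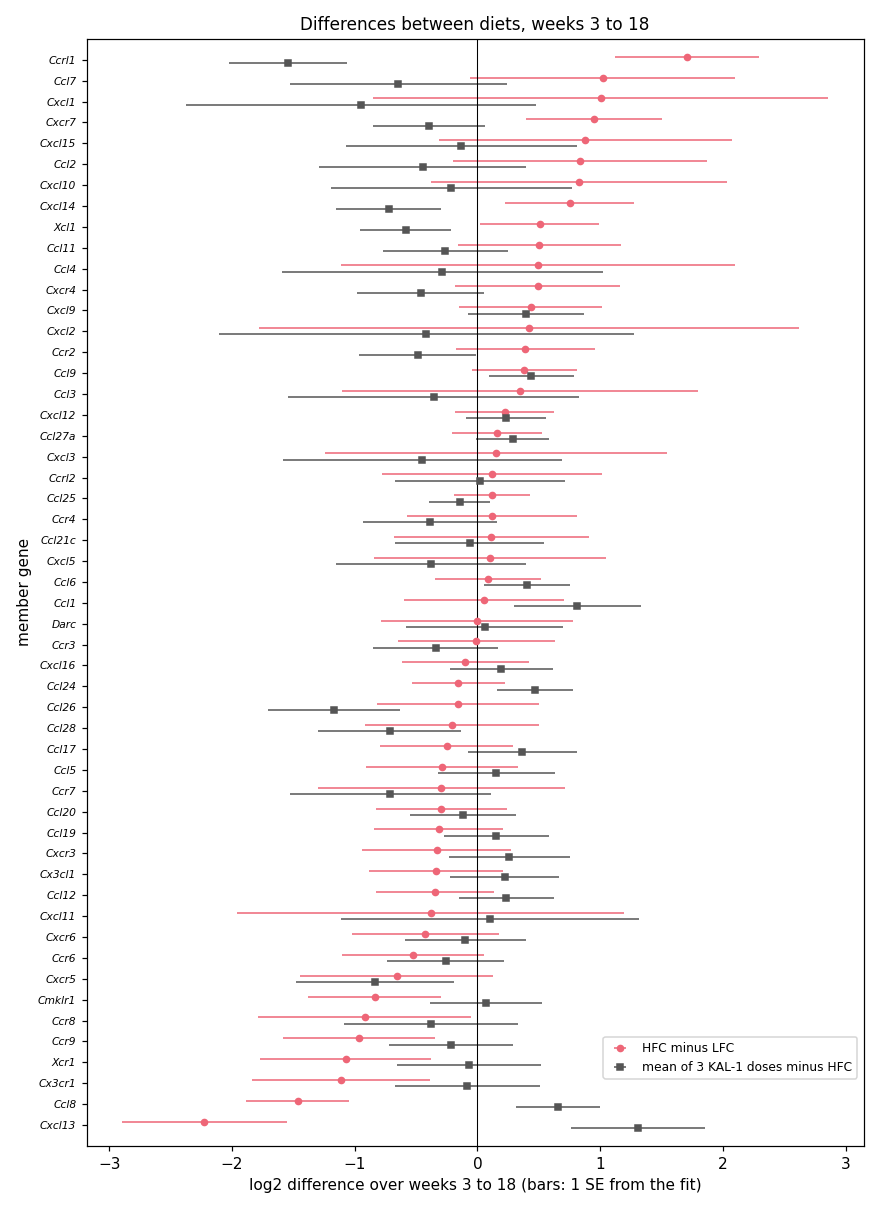
Fitted differences over weeks 3 to 18 for 52 of the 53 members tested, HFC minus LFC and the mean of the 3 doses minus HFC, in log2 units with bars of 1 SE. Cxcl13, Ccl8 and Ccrl1 lie farthest from 0 in units of their SE in HFC minus LFC, and Ccrl1 and Cxcl13 do so with the opposite sign in doses minus HFC. The HFC arrays enter both sets with opposite signs.

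The monocyte axis best known from obese fat did not differ beyond its spread. Ccl2 differed between HFC and LFC over weeks 3 to 18 by 0.84 ± 1.03, Ccl7 by 1.02 ± 1.08 and Ccr2 by 0.39 ± 0.57. The second probe of Ccr2 gave -1.66 ± 1.04, so its probes disagree. When LFC week 3 and HFC week 12 were left out, Ccl2 and Ccl7 differed by -0.50 and -0.04, so the sign of both rested on those arrays. LFC was low in immediate early genes at weeks 3 and 12 and HFC at week 3. The SEs come from a single fit of all diets, so the low arrays of HF20 and HF75 enter them too. Ccl6, Ccl9 and Ccl12 differed by 0.09 ± 0.43, 0.38 ± 0.43 and -0.35 ± 0.48. Ccl5, a T cell product, differed by -0.29 ± 0.62, and Cxcl12 and its receptor Cxcr4 by 0.22 ± 0.40 and 0.49 ± 0.67. Of 9 lymphoid receptors tested 1 was higher in HFC, with a median of -0.52 and 0 at an unadjusted p under 0.05. The neutrophil ligands were higher in 5 of 5, with a median of 0.42, and in 1 of 5, with a median of -0.28, when the same pair of arrays was left out. Over fits that left out 1 time point the Cxcl1 difference ran from -1.12 to 2.04. In the fit with all arrays 4 of 9 neutrophil marker genes were lower at an unadjusted p under 0.05, with a list median of -1.69.

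The 3 doses of KAL-1 were each compared with HFC over weeks 3 to 18. These comparisons share the HFC arrays with each other and with HFC against LFC, so an HFC array that is low in a gene raises all of the dose differences and lowers the HFC minus LFC difference. For HF5 0 of 53 members passed (0% of all probes), and 2 (3.77%) had an unadjusted p under 0.05, beside 3.42% of all probes. For HF20 0 passed (0% of all probes), and 2 (3.77%) had such a p, beside 4.84%. For HF75 0 passed (0% of all probes), and 1 (1.89%) had such a p, beside 1.5%. For the mean of the 3 doses 0 passed (0% of all probes), and 3 (5.66%) had such a p, beside 1.75%. The lowest adjusted p values of a member in limma were 0.954, 0.780, 1.00 and 1.00.

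Ccrl1 was lower than HFC with every dose. In HF75 its values at weeks 3 to 18 were -6.14, -3.93, -3.61, -4.50, -6.40 and -5.22, beside -1.67, -1.57, -2.58, -2.20, -3.33 and -4.51 in HFC. HF75 was lower at 6 of 6 weeks, by -4.47, -2.36, -1.03, -2.30, -3.06 and -0.71, and the groups overlapped. The fitted difference was -2.32 ± 0.59 (SE, unadjusted limma p = 0.000619, adjusted p = 1.00). Only 3 of the 6 HF75 arrays had Ccrl1 well above background, so the lowest values there are near the limit of the probe. In HF5 the difference was -1.30 ± 0.59 (p = 0.0366, 5 of 6 weeks lower), in HF20 it was -1.0 ± 0.59 (p = 0.102, 5 of 6 weeks lower), and the mean of the doses differed by -1.54 ± 0.48 (p = 0.00381).

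Cxcl13 was higher than HFC with every dose. In HF75 the differences by week were 1.59, 3.88, 1.72, 0.18, 0.05 and 0.36, or 1.30 ± 0.67 in the fit (unadjusted limma p = 0.0655). In HF5 they were 3.14, 0.54, 2.14, -1.15, 3.03 and 1.24, or 1.49 ± 0.67 (p = 0.036). In HF20, 5 of 6 weeks were higher, with 1.14 ± 0.67 (p = 0.101), and the mean of the doses differed by 1.31 ± 0.55 (p = 0.025). The group means were -0.51 ± 2.18 in HF5, -0.85 ± 1.54 in HF20 and -0.70 ± 2.03 in HF75 (SD, n = 6 each), all between those of HFC and LFC, and every group overlapped every other. Ccl8 differed from HFC by 0.85 ± 0.42, 0.50 ± 0.42 and 0.61 ± 0.42 in HF5, HF20 and HF75, with unadjusted p of 0.0537, 0.248 and 0.157.

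Cxcl14, a constitutive ligand of epithelia and fat, was lower in HF20 by 1.28 ± 0.52 (unadjusted limma p = 0.0229), at 5 of 6 weeks. In HF75 it was lower at 6 of 6 weeks, by -0.42, -0.25, -0.81, -1.22, -1.38 and -0.86, with a fitted difference of -0.82 ± 0.52 (p = 0.129). In HF5 it differed by -0.07 ± 0.52. Members with 1 sign at all 6 weeks were 2 of 45 in HF5 (4.44%, Ccl12 and Cx3cr1, beside 2.45% of all probes), 0 of 45 in HF20 (beside 1.7%) and 3 of 45 in HF75 (6.67%, Cxcl13, Cxcl14 and Ccrl1, beside 1.7%). Also in HF20, Ccl1 differed by 1.39 ± 0.62 (p = 0.0346), although it was well above background on 8 of 39 arrays only, and Cxcr4 by -1.25 ± 0.63 (p = 0.0608). Ccr2 was lower in HF5 by 1.14 ± 0.57 (p = 0.0559). Ccl26, an eotaxin family ligand, differed by -1.17 ± 0.54 (p = 0.0396) for the mean of the doses, with no HF5 array well above background, and by -0.67 once LFC week 3 and HFC week 12 were left out.

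The inducible ligands of HF20 held the largest differences and the largest errors. Cxcl1 differed from HFC by -3.27 ± 1.75, Ccl7 by -1.97 ± 1.08, Cxcl10 by -1.53 ± 1.20 and Ccl2 by -1.42 ± 1.03, with unadjusted limma p of 0.0747, 0.0805, 0.217 and 0.183. All 5 neutrophil ligands were lower, with a median of -2.03, and 7 of the 11 immediate early genes were lower at an unadjusted p under 0.05, with a list median of -1.91. Without the 12 arrays low in immediate early genes, an alternative chosen after seeing the data, Cxcl1, Ccl7 and Ccl2 differed by 0.05, 0.17 and 0.21, Cxcl14 by -0.33 and Cxcr4 by -0.11. Cxcl1, Ccl7 and Ccl2 do not overlap between those 12 arrays and the others. Their smaller differences therefore follow from the choice of arrays and are a description only. The median over the members went from -0.41 to 0.05, beside -0.07 over all probes with all arrays. The Ccrl1 and Cxcl13 differences of HF75 were -1.99 and 1.10 without those arrays.

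The 3 doses did not form an order. Of the 48 members well above background on at least 20 arrays, the difference from HFC was ordered upward with dose in 1 and downward in 6. The same count over all probes was not made, so these counts are a description only. HF75 and HF5, which share no arrays in their comparison, differed in 0 of 53 members at an adjusted p of 0.05, beside 0% of all probes, and 0 members had an unadjusted p under 0.05, beside 5.81% of all probes. The smallest p were those of Ccl17, a ligand of Ccr4, with -1.08 ± 0.54 (p = 0.057), Ccrl1 with -1.02 ± 0.59 (p = 0.0965) and Ccl19 with -0.78 ± 0.53 (p = 0.149). Cxcl13 differed between these doses by -0.20 ± 0.67. A total of 15 members were higher in HF75 and 38 lower, with a median of -0.30 beside 0.01. Leaving out 1 time point moved the median over the members between -0.63 and -0.07. At week 12 HF75 was low in immediate early genes and HF5 was not. Ccl2, for example, differed by -7.04 at that week and was higher in HF75 at 4 of 6 weeks.

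Time was compared within each control diet, weeks 3 to 18 against the time points before. Age, time on the diet and scan period run together here, except at week 0, and cannot be told apart. Within LFC 0 of 48 members passed, beside 0.49% of 30421 probes (149 probes), and the lowest adjusted p of a member was 0.291. A total of 6 (12.5%) had an unadjusted p under 0.05, beside 5.52% of all probes. A total of 38 members were higher late and 10 lower, with a median of 0.96 beside -0.09 over all probes. Without the LFC week 3 array 11 members had an unadjusted p under 0.05, beside 7.35% of all probes, and Cxcr5, Cxcl13 and Ccl24 differed by 3.05, 3.08 and 2.13.

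The lymphoid receptors were higher late in 7 of 7 within LFC, with a median of 0.99 and 3 at an unadjusted p under 0.05. Cxcr5 was -6.10, -6.95, -2.67, -4.07 and -4.09 early and -0.83, 0.42, -2.47, -3.74, -0.26 and -2.58 late, a difference of 3.20 ± 0.89 (SE, unadjusted limma p = 0.00332, adjusted p = 0.291). Ccr6 differed by 1.71 ± 0.57 (p = 0.0111), and the T cell receptor of Cxcl16, Cxcr6, by 0.99 ± 0.44 (p = 0.0446). The LFC week 6 array, high in B cell markers, held the highest late LFC values of Cxcr5 and Ccr6, 0.42 and -0.25. Leaving out 1 time point moved the Cxcr5 difference between 2.66 and 3.73. Cxcl13, the ligand of Cxcr5, was -3.23, -4.95, -1.40, -1.43 and -1.15 early and -1.88, 0.43, -2.10, 2.29, 2.30 and 0.32 late, a difference of 2.66 ± 0.96 (p = 0.0161) with overlapping groups. The B cell marker list had medians of -5.04 to -1.88 early and -2.95 to 0.70 late, with 4 of 8 genes higher at an unadjusted p under 0.05, and 2 of the 3 antibody genes of plasma cells passed the adjusted threshold, with a list median difference of 3.26. The part of these cells in the differences was not tested.

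Ccl24, an eotaxin family ligand of Ccr3 made by alternatively activated macrophages, was -0.74, 0.78, -1.11, -1.40 and 1.13 early in LFC and 0.79, 1.25, 2.19, 1.39, 3.36 and 1.11 late. The groups overlapped through week 0 only. The difference was 1.95 ± 0.59 (unadjusted limma p = 0.00598, adjusted p = 0.425), and its second probe gave 1.89. Of the other eosinophil ligands, Ccl11 was higher late by 1.78 ± 0.88 (p = 0.0664). A list of mast cell and eosinophil genes had 4 of 7 higher at an unadjusted p under 0.05, with a median of 1.45. Ccrl1 was lower late, with -2.17, -3.31, -1.40, 0.22 and -3.03 early and -3.52, -2.56, -3.72, -5.59, -5.14 and -5.57 late, a difference of -2.41 ± 0.73 (p = 0.00591, adjusted p = 0.421). With another background correction that difference became 0.074.

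**Figure D4:**
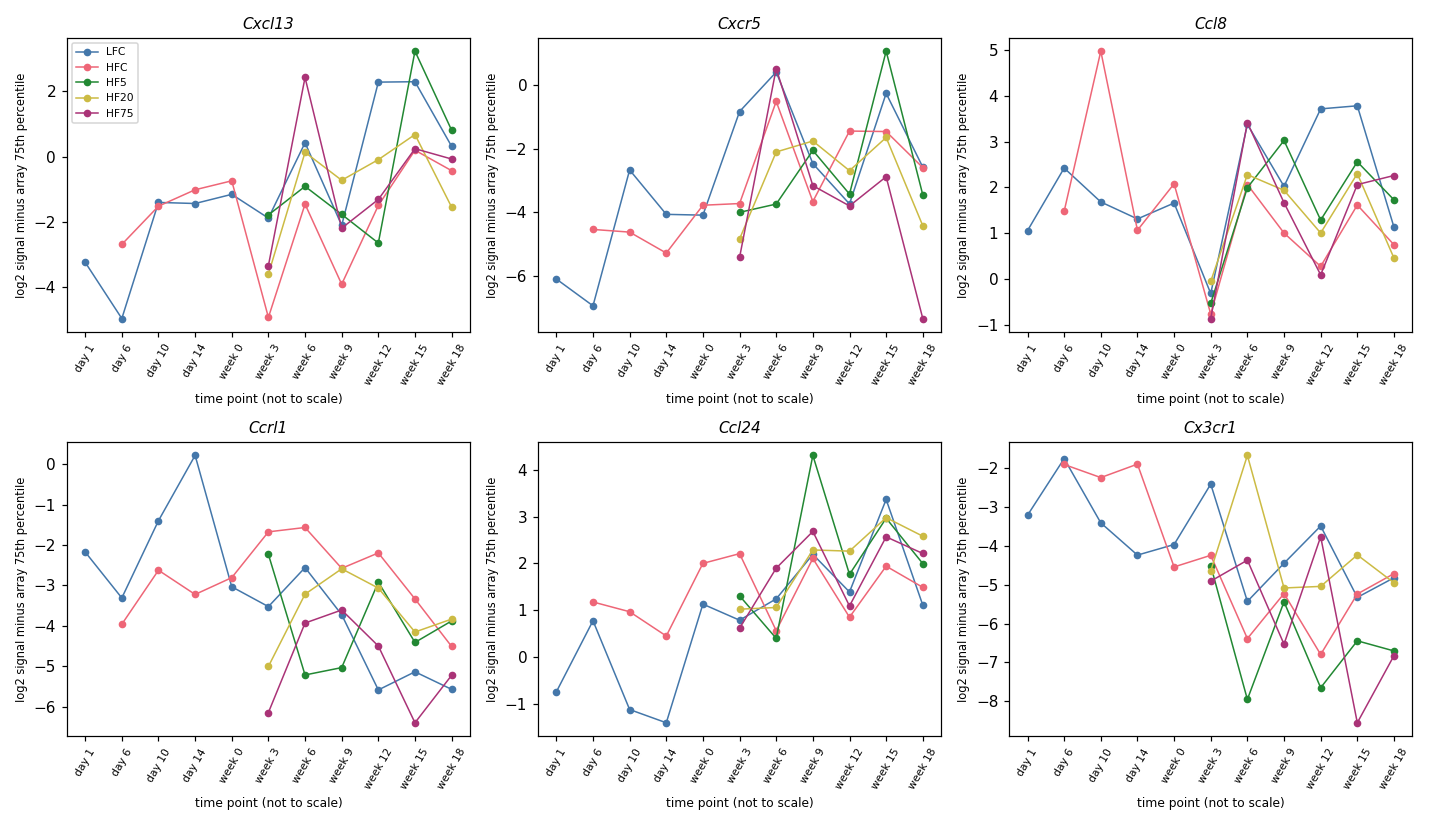
Normalised log2 signal of Cxcl13, Cxcr5, Ccl8, Ccrl1, Ccl24 and Cx3cr1 over time, with 1 point per array and a line for each of the 5 diets. In LFC Cxcl13 reached 2.29 and 2.30 at weeks 12 and 15 while HFC stayed at or below 0.20, and Ccrl1 of LFC lay below that of HFC at every week from 3 to 18.

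Within HFC 0 of 49 members passed, beside 0% of 29398 probes, and the lowest adjusted p was 0.207. A total of 11 (22.4%) had an unadjusted p under 0.05, beside 17.3% of all probes, so the members stood near a high background. A total of 35 were higher late and 14 lower, with a median of 1.05 beside 0.02. Cxcr5 was the single member whose early and late HFC arrays did not overlap (1 of 49, beside 2.95% of all probes tested), with -4.54, -4.63, -5.29 and -3.78 early and -3.73, -0.51, -3.66, -1.44, -1.46 and -2.59 late, so the sets were parted by little. Its difference was 2.33 ± 0.64 (SE, unadjusted limma p = 0.00392, adjusted p = 0.210).

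Cx3cr1, the fractalkine receptor of macrophages, was -1.91, -2.25, -1.90 and -4.55 early in HFC and -4.25, -6.39, -5.23, -6.80, -5.24 and -4.72 late. The difference was -2.78 ± 0.63 (unadjusted limma p = 0.00111, adjusted p = 0.207). This probe was well above background on 28 arrays, and the second probe of Cx3cr1, well above background on 13, gave 0.19, so the probes disagree. Cxcr4 differed by 2.06 ± 0.63 (p = 0.00771) and its second probe by 1.63. Cxcl14 and Ccl11 were higher late by 2.24 ± 0.73 (p = 0.011) and 2.29 ± 0.78 (p = 0.0139). These 3 genes were also lower on the arrays low in immediate early genes, which were most of the early HFC arrays. Cxcr4 was -4.17 to -1.55 on such arrays and -1.59 to 1.85 on the others. Ccl11 was -1.48 to 1.39 and 0.44 to 4.67, and Cxcl14 was -2.25 to -0.06 and -1.43 to 3.72. Cx3cr1 overlapped and leaned the other way, with -5.05 to -1.68 on such arrays and -8.55 to -3.41 on the others. The part of this pattern in their differences was not tested.

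The inducible ligands were higher late in HFC, where 3 of the 4 early arrays and 1 of the 6 late arrays were low in immediate early genes. Cxcl1 differed by 5.26 ± 1.84, Ccl7 by 2.83 ± 1.00 and Ccl2 by 2.45 ± 0.88, with unadjusted limma p of 0.0159, 0.0164 and 0.0176. Of the 11 immediate early genes 9 were higher at an unadjusted p under 0.05, with a list median of 2.93. Without the arrays low in immediate early genes, which leaves 1 early HFC array that is taken to vary like the others, the 3 ligands differed by 0.76, 0.21 and 0.24, Cx3cr1 by -1.13 and Cxcr5 by 1.85. None of the 3 ligands overlaps between the arrays left out and the others, so their smaller differences follow from that choice. The median over the members then was 0.21, and 3 of 49 had an unadjusted p under 0.05 in place of 11, beside 2.03% of all probes in place of 17.3%.

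**Figure D5:**
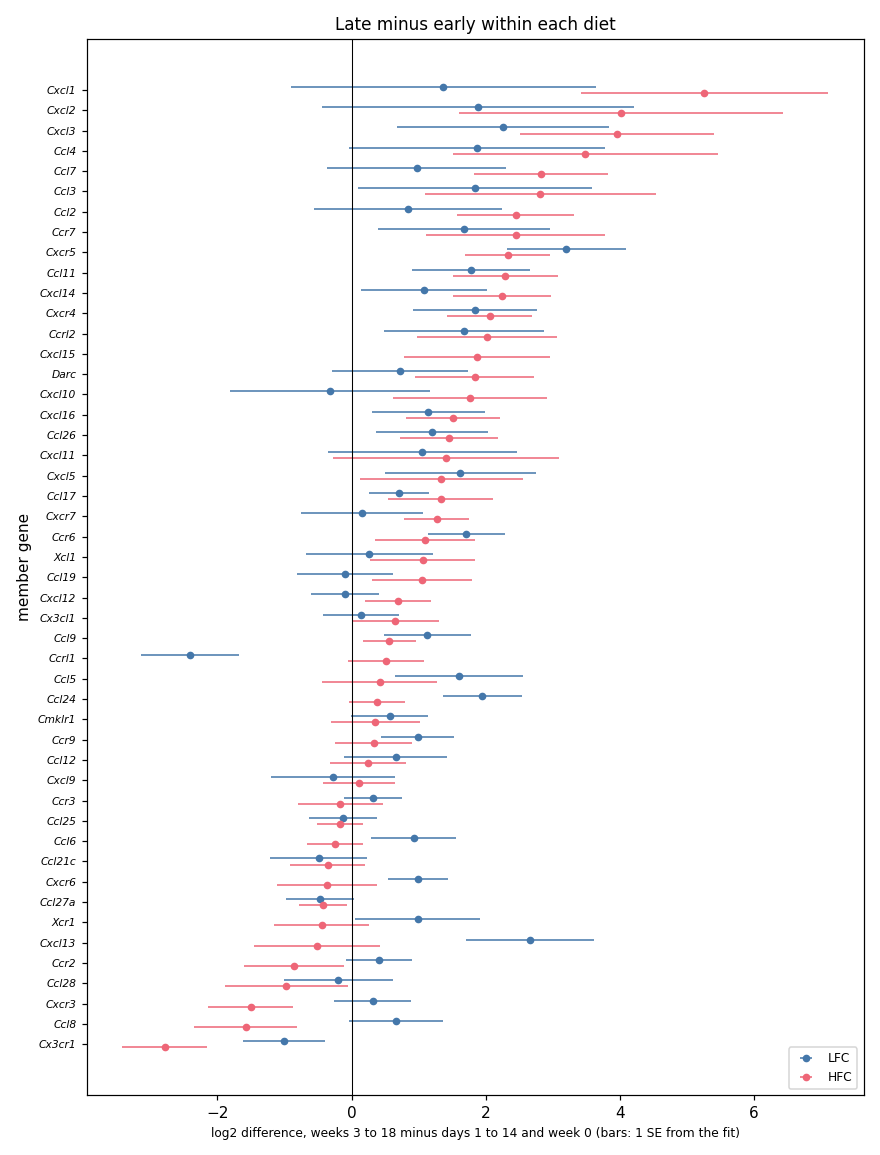
Fitted differences of weeks 3 to 18 minus the earlier time points within LFC and within HFC for 48 of the 49 members tested within HFC, in log2 units, with bars of 1 SE. Cxcr5 is above 0 in both diets, Ccrl1 lies at -2.41 in LFC and 0.51 in HFC, and Cxcl1 has the largest value in HFC, 5.26, with an SE of 1.84.

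The difference between the diets was itself compared between the periods. Of 48 members 0 passed, beside 0% of 29169 probes, and the lowest adjusted p of a member in limma was 0.841. A total of 9 (18.8%) had an unadjusted p under 0.05, beside 5.14% of all probes. Cxcl13 had a mean HFC minus LFC difference that was lower by 2.97 ± 0.64 late (SE, p = 0.000654), and Ccrl1 one that was higher by 2.98 ± 0.71 (p = 0.0014). For Ccl8 the change was -2.09 ± 0.85 (p = 0.0303) and for Ccl24 -1.46 ± 0.57 (p = 0.0272). For Cxcl1 and Ccl7 it was 6.10 ± 2.30 (p = 0.0234) and 2.49 ± 1.13 (p = 0.0497), and 7 of 11 immediate early genes were higher by this measure at an unadjusted p under 0.05. Without the 12 arrays low in immediate early genes, which leaves 1 early HFC array, Cxcl13 was at -2.05, Ccrl1 at 1.02 and Cxcl1 at 0.80. Cxcl1 does not overlap between those arrays and the others, so its smaller value follows from the choice of arrays. The remaining members of the 9 were Cx3cr1 with -1.81, Cxcr3 with -1.78 and the lymphotactin gene Xcl1 with 1.37.

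A linear change per week over weeks 3 to 18, with diet as a block, was found in 0 of 53 members at an adjusted p of 0.05, beside 0.0413% of 31450 probes (13 probes). A total of 4 members (7.55%) had an unadjusted p under 0.05, beside 9.89% of all probes, so the members were not above the background. Cxcl13 was higher by 0.188 ± 0.06 per week (SE, p = 0.00239, adjusted p = 0.296 in limma), the lowest p of the family, and by 0.20 without the 12 arrays low in immediate early genes. Leaving out 1 time point moved it between 0.095, without week 3, and 0.27, without week 18. Ccl24 was higher by 0.070 ± 0.03 per week (p = 0.0307), Ccrl1 lower by 0.083 ± 0.04 (p = 0.0277) and Cx3cr1 lower by 0.092 ± 0.04 (p = 0.0402), with 0.004 per week for the second probe of Cx3cr1.

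Genes around the family were read from lists. Of 19 inducers of chemokines (cytokines, Toll-like receptors and NF-kappaB and interferon factors) 0 passed an adjusted p of 0.05 in any comparison. Within HFC 6 of 18 were higher late and 1 lower at an unadjusted limma p under 0.05, beside 17.3% of all probes. They included the NF-kappaB targets Il6 with 5.97 ± 2.65 (p = 0.0459), Tnfaip3 with 3.10, Nfkbiz with 2.31 and Nfkbia with 2.14, and Irf7, an interferon factor, was the lower one with -1.32. The median of the inducer list was -0.70 to 0.71 on the arrays low in immediate early genes, which were most of the early HFC arrays. Its middle value was 0.18 over the early HFC arrays and 2.42 over the late ones. The part of those arrays in the late rise was not tested. Of 22 genes of signalling below chemokine receptors, 2 were lower in HF20 than in HFC at an unadjusted limma p under 0.05, beside 4.84% of all probes. Elmo1, a guanine exchange partner in migration, was lower by 1.62 (p = 0.0017) and Rgs2, a brake on G protein signals, by 1.07. Among 7 other leukocyte attractants, Rarres2, the precursor of chemerin, was higher in HFC than in LFC over weeks 3 to 18 by 0.67 ± 0.32 (p = 0.0484), beside -0.84 ± 0.54 for its receptor Cmklr1. Of 13 other attractant receptors 7 were on the array, and Fpr1, the formyl peptide receptor of neutrophils, was lower in HFC by 1.43 (p = 0.021). Within HFC 2 of 7 of these receptors were higher late and 3 lower at an unadjusted limma p under 0.05, beside 17.3% of all probes. Among the lower ones was Fpr1 with -2.40 ± 0.68 (p = 0.00551). The list genes named in this paragraph were chosen among those with an unadjusted p under 0.05 after their values were seen, and others with such a p are not named.

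Where a member had a second probe, both gave the same sign in 6 of 11 pairs for HFC against LFC over 10 time points and in 7 of 13 over weeks 3 to 18. In the dose comparisons with HFC the counts were 12, 10 and 9 of 13, and within LFC and HFC they were 8 of 13 and 8 of 12. Cxcl13, Ccl8 and Ccrl1 are represented by 1 probe each.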

How the data were processed

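Scanner files of 39 arrays were used. Per the file headers they hold spot intensity that Agilent Feature Extraction (version 9.1 in the submitters' processing notes, a later one in the headers) had corrected for background and spatial trend, array by array, without scaling between arrays. The paper linked to the series describes liver of the same feeding experiment and took week 0 as day 14 of feeding. The authors' deposited table gives, after GeneSpring GX, each array's log2 values minus those of its time-matched LFC array, and was used as an alternative only. It followed the scanner files with r of 0.992 to 1.00 across probes.

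The processed signal was log2 transformed, the 75th percentile of the array was subtracted, outlier spots were set to missing and spots of a probe were averaged. Probes above background by the scanner call on 10 or more of 20 arrays (HFC against LFC), 6 of 30 (weeks 3 to 18) or 5 (within a diet) were fitted with limma (version 3.58.1, R 4.3.3), two-sided, with Benjamini-Hochberg adjustment over all probes tested and a threshold of 0.05. Time point was the block for diets and diet for weeks. The script was tested on simulated data with 200 changed probes. Named members were, per comparison, up to 5 per direction past the threshold, otherwise the 3 with the smallest p, and 20 fixed members, of which Ccl21a is listed as Ccl21c on the array. A single member is counted among the members but its values are not reported here. The members and lists were chosen with earlier results of these data known. The precision is limited by the number of arrays. Lists of other cell types were read as medians. Alternatives changed the background correction, the scaling, the filter, the probe rule, the array weights, the block and the arrays left out. Also used were data.table (version 1.17.8), Python 3.11.15, pandas 2.3.3, numpy 2.4.6 and matplotlib 3.10.9. Accessions of 57 members matched a RefSeq table on GRCm38.p6.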

Additional observations from a re-analysis of the deposited data

Results flagged for a closer look

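Values far from the rest of their set were looked for in 144 sets of 4 to 10 arrays over 24 members. Each set was of 1 diet, with LFC split by period and HFC taken whole. The search found 10, where chance gives about 1 in 20 sets, so the count was not far above that share. A total of 5 of the 10 were on the HF75 week 12 array. There Ccl2 was -0.95 (the other HF75 arrays 5.07 to 7.19), Ccl7 was -2.87 (3.43 to 5.00), Cxcl1 was -4.22 (4.33 to 5.52), Cxcl10 was -2.61 (3.10 to 5.41) and Cxcl12 was 2.98 (4.84 to 5.82). This array was the single HF75 array low in immediate early genes. In LFC, Cxcl1 was -5.24 at week 12, beside 4.65 to 5.22 on the other late arrays with a value. On the HFC day 10 array Ccl6 was 5.01 among late and early HFC arrays otherwise at 2.86 to 3.82, and Ccl8 was 4.97 beside -0.77 to 2.08. In HF20, Ccl6 was 1.75 at week 3 (the others 3.72 to 4.40), and Cx3cr1 was -1.68 at week 6 (the others -5.09 to -4.24).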

How the results depend on the processing

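Over the alternatives run, the number of members past an adjusted p of 0.05 stayed at 0 in 231 cases and not in the 4 that follow. With array weights 1 member passed late against early within LFC (Ccl24, adjusted p = 0.0361 in limma) and 23 within HFC, where 8032 of 29398 probes passed (27.3%). Leaving out 1 time point gave 0 to 4 members within HFC (4 without week 0: Ccl2, Cxcl1, Ccl7 and Cx3cr1, beside 2.81% of all probes) and 0 to 1 for the change per week (1 without week 3: Cxcl14, beside 2.01%). The median over the members of late against early within HFC was -0.11 with the arrays of the earlier scan period and 0.21 without the 12 arrays low in immediate early genes, a setting chosen after seeing the data, beside 1.05. Among the members with the smallest p, 648 values kept their direction and side, 5 passed only under an alternative, and Ccrl1 within LFC turned from -2.41 to 0.074 with normexp background correction. Of the values of the other fixed members 3750 stayed within the error of the difference from the value reported and 66 did not. Counts of members at an unadjusted p under 0.05 were less stable, with 141 within 1.5 times, 51 higher and 43 lower. Time points pair the arrays of different diets, so they were the block, and with no replicate block 0 members passed in any comparison between diets. The correlation of arrays on a slide was -0.871 over 10 time points and -0.179 over weeks 3 to 18, and that of arrays of a scan date was 0.368 for the change per week. Scan date could not be used as a random block within LFC or HFC, where each date held 1 array, and the authors' table, with LFC at 0, could not serve within LFC. Causes were not tested. Each diet had 1 array per time point, and members well above background on few arrays, such as Ccl1, are limited by signal.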
